A study of Mus musculus with 16 samples.

Results

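The enzymes that spend arginine in macrophages were followed here across F4/80-positive cells sorted from mouse muscle: the arginases, inducible nitric oxide synthase, the citrulline recycling enzymes and the enzymes of polyamine metabolism. The 10 genes were chosen for their known roles, with earlier results of these data known. Their symbols were Arg1, Arg2, Nos2, Ass1, Asl, Odc1, Srm, Sms, Sat1 and Azin1, from the 24421 gene symbols of the count table. Of the 10 genes, 9 were among the 13649 genes with enough counts to be tested, and Ass1 was not. Bulk RNA sequencing covered 16 libraries, 4 for each of 4 groups. These were wild type (WT) and GLUD1 KO from normal muscle, and WT and GLUD1 KO from muscle injected with CTX, an agent that the labels name only by that abbreviation. Per the design text, cells were sorted at baseline and when muscle damage was at its peak, and the KO macrophages lack Glud1, the gene of glutamate dehydrogenase. The sources used here do not give the allele, the driver of the deletion, the strain, the age or the day after injection. Whether each library is a mouse of its own is not stated by any label. The p-values therefore refer to the spread of these libraries, part of which may be technical.

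Arginine is split by arginase into urea and ornithine, or oxidised by nitric oxide synthase into nitric oxide and citrulline. Citrulline is returned to arginine by argininosuccinate synthase and argininosuccinate lyase, and ornithine is the substrate from which ornithine decarboxylase makes putrescine, the first polyamine. Macrophages are known for inducing arginase or nitric oxide synthase according to their activation state, and polyamines are known to support growth and translation.

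Promoter sequence from RefSeq (GRCm38.p6) was at hand for 4 of the 10 genes, Ass1, Odc1, Sms and Sat1. The 250 bases before the start are shown for Sms and Sat1, because these neighbouring steps of polyamine turnover lay on opposite sides of the injury comparison in WT and because both windows lie outside the annotated gene. Capitals mark the E-box CACGTG. The first Sms window is chrX:157492288-157492537 and the Sat1 window is chrX:155216450-155216699, both on the minus strand and written 5′ to 3′.
Sms: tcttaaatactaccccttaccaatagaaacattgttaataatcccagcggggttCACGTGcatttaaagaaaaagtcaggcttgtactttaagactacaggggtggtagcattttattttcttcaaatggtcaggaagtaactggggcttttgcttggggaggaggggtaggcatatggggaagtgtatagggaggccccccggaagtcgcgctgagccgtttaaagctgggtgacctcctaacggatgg
Sat1: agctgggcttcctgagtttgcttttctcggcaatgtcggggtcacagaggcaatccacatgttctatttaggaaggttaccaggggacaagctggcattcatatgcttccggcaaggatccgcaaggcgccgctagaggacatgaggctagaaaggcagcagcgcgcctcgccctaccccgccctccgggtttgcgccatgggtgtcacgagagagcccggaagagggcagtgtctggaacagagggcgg
The searched letters were C/EBP TTNNGCAA, STAT TTCNNNGAA, AP-1 TGANTCA, E-box CACGTG, CRE TGACGTCA, the amino acid response element TGATGNAA and the hypoxia core ACGTG, with the motifs of STAT6, NF-kB and the ISRE core, on both strands. The E-box occurred in the first Sms window, 196 to 191 bases before the start, and in the Ass1 window, 36 to 31 bases before the start. It occurred in 6.02% of the 32851 promoters of the table, and the hypoxia core, which overlaps it at both places, in 16.6%. None of the 10 motifs occurred in the windows of Odc1, Sat1 and the second Sms promoter, which says only that these letters are not in those 250 bases. The other 8 motifs occurred in 1.55% (CRE) to 9.56% (C/EBP) of all promoters. The GC content was 47.2% in the first Sms window, 59.6% in that of Sat1, 80.0% in that of Odc1 and 75.6% in that of Ass1, against a median of 52.4%.

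Library totals ran from 17051892 to 23097420 counts. TMM scaling factors were 1.13 to 1.34 in normal and 0.758 to 0.866 in CTX-injected muscle, and the CPM values below are counts scaled with them. The 10 macrophage markers summed to 10435 to 19298 CPM in normal muscle and to 21550 to 35710 CPM after injection, with none at 0 in any group. Singly, 7 of them rose and 3 fell in WT, and 6 rose and 3 fell in KO. Markers of other cells were mostly lower after injection, with 11 of 11 tested T and NK cell, 7 of 8 dendritic, 8 of 10 endothelial, 6 of 8 fibroblast and 8 of 8 mural markers falling in WT. By Xist and Y-linked genes 3 normal libraries (WT 5 and 6, KO 5) were female and all others male. Glud1 lay at 256 ± 30.3 CPM in WT and 240 ± 25.3 CPM in KO normal muscle, and at 373 ± 19.9 and 339 ± 10.5 CPM in CTX-injected muscle (SD, n = 4 each). Counts summed over a whole gene do not show a missing exon, and the deleted part is not given, so Glud1 does not check the KO label and genotype is as labelled.

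In macrophages of injured muscle, 8 of the 9 tested genes were higher than in normal muscle in WT and the same 8 were higher in KO. Arg1 rose most, from at most 1.85 CPM in any normal library to at least 1139 CPM in every injured library, and Arg2, Nos2 and Odc1 followed. Srm, Sms, Asl and Azin1 rose 1.90-fold to 3.08-fold, while Sat1 fell in WT. By edgeR's quasi-likelihood test with adjustment over all genes (threshold 0.05), 8 genes rose and 1 fell in WT, where 72.7% of all tested genes were called, 33.3% higher and 39.4% lower. In KO 8 rose and 0 fell, beside 73.6% of all tested genes called, 33.3% higher and 40.2% lower. DESeq2 called the same counts, 8 up and 1 down in WT beside 73.5% of all tested genes, and 8 up and 0 down in KO beside 73.9%. The median log2 difference was 1.32 over the 9 tested genes and -0.15 over all tested genes in WT, and 1.62 and -0.16 in KO. With so large a share of all genes called, a call by itself sets none of these genes apart. The set was chosen with earlier results of these data known, so its contrast with all genes is a description only. The CPM of normal and injured libraries did not overlap for 8 of the 9 genes in WT, beside 65.5% of all tested genes, and for 7 of the 9 in KO, beside 66.8%. Every tested gene of the set had at least 14 counts in every library.

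**Figure D1:**
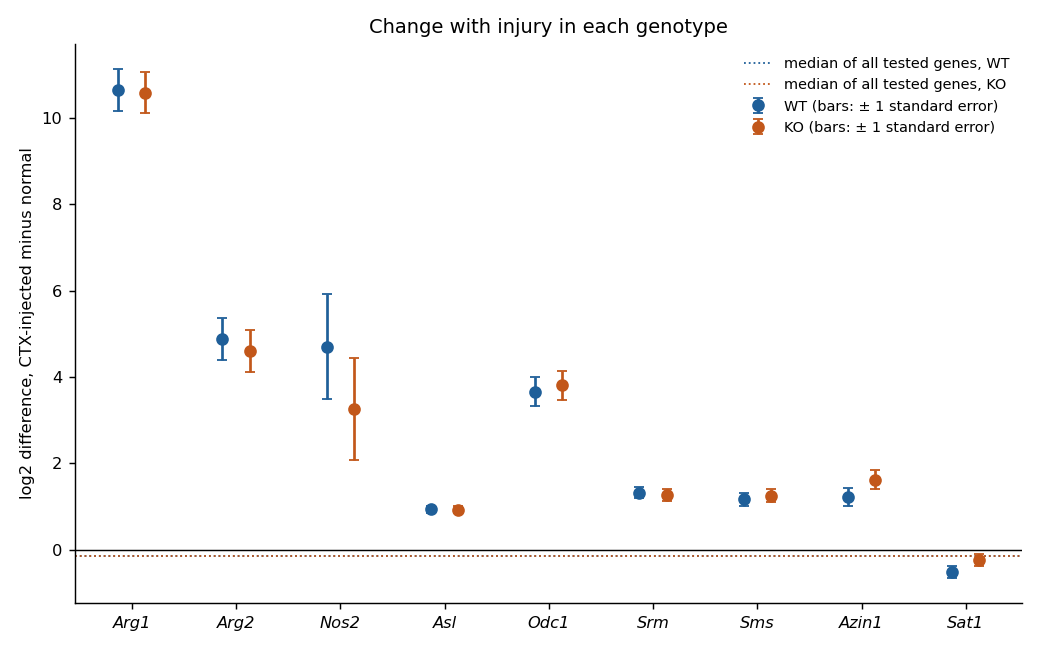
Log2 difference between CTX-injected and normal muscle (y axis) for each of the 9 tested genes (x axis) in WT (blue) and KO (orange). Bars are 1 approximate standard error (SE), the absolute log2 difference divided by the square root of the test's F. Dotted lines mark the median of all tested genes. Arg1 lies near 10.6 in both genotypes, Arg2 and Odc1 between 3.66 and 4.88, Nos2 has the longest bars, and Sat1 alone lies below 0.

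The size of the moderate changes depended on the scaling. When libraries were scaled to their totals alone, the median of all genes moved to -0.77 in both genotypes, and 1944 genes were called higher and 8349 lower in WT, against 4551 and 5378 with TMM. In KO the counts were 1920 and 8398, against 4549 and 5491. Under totals alone Asl was at a log2 difference of 0.31, Sms at 0.55, Azin1 at 0.62 and Srm at 0.70 in WT, all still called. Relative to the median of all genes these differences were 1.08 for Asl, 1.32 for Sms, 1.37 for Azin1 and 1.47 for Srm with TMM, and 1.08, 1.32, 1.39 and 1.47 with totals alone. Sat1 in WT was 0.36 below that median under either scaling. A change of scaling moves all genes by nearly the same amount, so this likeness was built in. It does not show which scaling holds.

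Arg1, the cytosolic arginase of alternatively activated macrophages (chromosome 10:24915221-24927484, minus strand, mm10), was with Nos2 among the lowest tested genes of the set in normal muscle and was the highest in injured muscle. The 4 WT normal libraries, numbered 2, 3, 5 and 6, had 1.41, 0.602, 1.09 and 1.14 CPM, and the 4 KO normal libraries, numbered 1, 2, 3 and 5, had 1.46, 1.85, 0.683 and 1.27 CPM. In CTX-injected muscle WT libraries 1 to 4 had 1287, 1588, 2403 and 1601 CPM, and KO libraries 1 to 4 had 3417, 2252, 1417 and 1139 CPM. Every injured library stood far above every normal library, and the WT and KO libraries overlapped in both conditions. The log2 difference was 10.65 in WT (SE 0.48, edgeR adjusted p = 2.15e-10) and 10.59 in KO (SE 0.48, edgeR adjusted p = 2.79e-10). The counts behind the normal values were 14 to 56 reads per library, so the base of this fold rests on few reads.

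Arg2, the mitochondrial arginase (chromosome 12:79130777-79156301, plus strand), started higher than Arg1 and ended lower. It had 3.40, 16.2, 5.78 and 7.76 CPM in WT normal and 5.31, 3.90, 16.9 and 7.64 CPM in KO normal libraries, in the order above. After injection it had 207, 224, 324 and 217 CPM in WT and 230, 249, 179 and 160 CPM in KO. Injured and normal libraries did not overlap, and the library numbered 3 was the highest of its group in WT normal, KO normal and WT CTX-injected muscle. Injury changed Arg2 by 4.88 on the log2 scale in WT (SE 0.48, edgeR adjusted p = 2.49e-07) and 4.60 in KO (SE 0.48, edgeR adjusted p = 4.08e-07). Arg2 shares 285 exon bases, 19.96% of its exons, with Vti1b on the opposite strand, and the kit keeps no strand, so reads there cannot be assigned. Vti1b itself was at a log2 difference of 0.73 in WT and 0.83 in KO, far smaller than that of Arg2.

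Per kilobase of exon, the balance between the arginases turned over with injury. Arg1 made up 2.32% to 20.96% of the summed Arg1 and Arg2 level in WT normal and 2.52% to 23.3% in KO normal libraries. After injection its share was 79.9% to 82.6% in the WT libraries and 82.0% to 90.5% in those of KO, with no overlap between conditions. The lowest shares, 2.32% and 2.52%, were those of the normal libraries numbered 3, in which Arg2 was highest and Arg1 lowest. Markers of neutrophils, another myeloid cell that a sort could carry over, summed to 353 to 6882 CPM in normal muscle and to 318 to 1353 CPM after injection, with all 11 listed genes of the table detected in each group. Of these 11 genes 0 rose with injury in either genotype, 7 fell in WT and 1 fell in KO. In bulk samples, fewer cells of a type and less RNA per cell cannot be told apart.

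**Figure D2:**
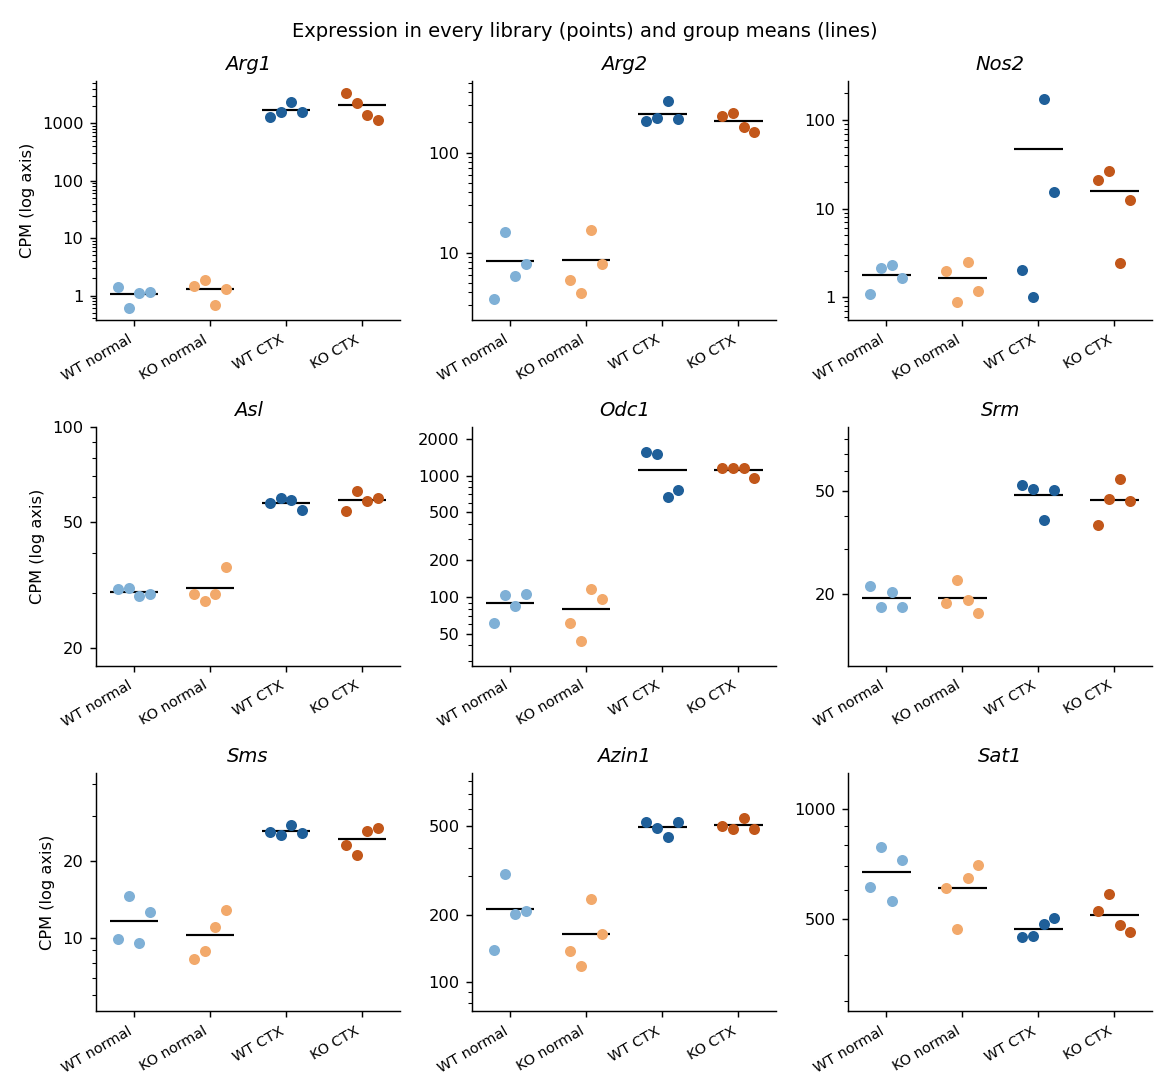
CPM of each tested gene (y axis, log scale, its own range per panel) in each library (points, in the order of their numbers) of the 4 groups (x axis), with the group mean as a line. Arg1, Arg2 and Odc1 show a wide gap between normal and injured libraries, Nos2 in injured muscle runs from 1.004 to 172 CPM, and Sat1 is lower in the WT injured libraries.

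Nos2, the inducible nitric oxide synthase (chromosome 11:78920787-78960254, plus strand), was the gene on which libraries differed most. In normal muscle it had 1.09, 2.15, 2.34 and 1.65 CPM in WT and 1.97, 0.893, 2.52 and 1.179 CPM in KO. In CTX-injected muscle it had 2.04, 1.004, 172 and 15.3 CPM in WT and 20.96, 26.4, 2.46 and 12.7 CPM in KO. In WT, libraries 1 and 2 did not exceed the normal range, library 4 was above it and library 3 stood alone. In KO, 3 of the 4 libraries were above the normal range and library 3 was within it. For Nos2 the log2 difference was 4.71 in WT (SE 1.21, edgeR adjusted p = 0.00250) and 3.26 in KO (SE 1.1799, edgeR adjusted p = 0.0205).

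The WT call for Nos2 rested on library 3: without it the log2 difference was 1.76 and the adjusted p 0.0574 by edgeR. With the library number as a block among the normal libraries, edgeR's adjusted p was 0.112 in WT (log2 4.84) and 0.309 in KO (log2 3.56), and with a block over all libraries it was 0.0505 in WT (log2 4.14). The KO call was lost by edgeR without normal library 2 (log2 3.03, adjusted p = 0.0523), without both normal libraries numbered 2 (log2 3.03, adjusted p = 0.0580), without CTX library 2 (log2 2.88, adjusted p = 0.050007) and in male libraries alone (log2 3.13, adjusted p = 0.0729). Nos2 had a biological coefficient of variation of 95.2%, against a median of 18.4% over all tested genes, and 99.6% of tested genes varied less. Per kilobase, Arg1 exceeded Nos2 by 27.7-fold to 3132-fold in WT and by 169-fold to 1141-fold in KO CTX-injected libraries. In normal libraries the ratio was 0.554 to 2.55 in WT and 0.537 to 4.11 in KO. The arginase message thus outnumbered that of Nos2 in every injured library, the WT library with 172 CPM of Nos2 included.

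The recycling enzymes could be followed only in part. Asl, argininosuccinate lyase (chromosome 5:130011258-130029247, minus strand), had 30.9, 31.1, 29.2 and 29.7 CPM in WT normal and 29.7, 28.2, 29.7 and 36.2 CPM in KO normal libraries. It had 57.6, 59.8, 58.8 and 54.6 CPM in WT and 54.4, 62.6, 58.5 and 59.6 CPM in KO CTX-injected libraries. Over the whole design Asl had the smallest fitted biological coefficient of variation of the set, 9.59%, and 1.55% of tested genes varied less. The KO normal libraries spread more than those of the other groups, with library 5 the highest, and normal and injured libraries did not overlap. The log2 difference was 0.93 in each genotype (SE 0.08, edgeR adjusted p = 9.56e-08 in WT and 1.06e-07 in KO).

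Ass1, argininosuccinate synthase (chromosome 2:31470207-31520672, plus strand), had 2 reads among 333326735 in all, 1 in WT normal library 6 and 1 in KO normal library 2, and was listed at 0 elsewhere. A count of 0 allows up to 3 counts, 0.0992 to 0.199 CPM depending on the library, for counting error only. Of its longest coding transcript, 73.1% matches another annotated gene, Gm5424, at 99.52% identity over 1240 bases, and Gm5424 had 0 reads. Few or no reads were also listed for Amd1, S-adenosylmethionine decarboxylase, with 99.8% of its transcript matched elsewhere and 0 reads, and for Oaz1, the main antizyme, with 63.6% matched and 50 reads in all. The sources used here do not say how reads that fit several places were counted, and the part of this in these values was not tested. The listed 0 therefore does not show that Ass1 is silent, and no comparison was made for it.

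Odc1, ornithine decarboxylase, the rate-limiting enzyme of polyamine synthesis (chromosome 12:17544794-17551505, plus strand), rose 12.6-fold in WT and 13.96-fold in KO. In normal muscle it had 61.5, 104, 83.9 and 105 CPM in WT and 60.9, 43.6, 116 and 96.3 CPM in KO. After injection it had 1573, 1491, 663 and 754 CPM in WT and 1146, 1162, 1157 and 959 CPM in KO. Injured and normal libraries did not overlap, and the WT injured libraries formed a high pair (1 and 2) and a low pair (3 and 4), with all KO values between the pairs. On the log2 scale Odc1 differed by 3.66 in WT (SE 0.34, edgeR adjusted p = 1.20e-07) and 3.80 in KO (SE 0.34, edgeR adjusted p = 8.76e-08). Of the Odc1 transcript 62.8% matches other annotated genes at 95% identity or more, most of them not in the count table, so its level is uncertain by the reads it shares with them.

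Azin1, the antizyme inhibitor that shields ornithine decarboxylase from degradation (chromosome 15:38487427-38519266, minus strand), rose with Odc1 but less. It had 139, 305, 203 and 207 CPM in WT normal and 138, 118, 236 and 163 CPM in KO normal libraries. After injection it had 524, 490, 449 and 525 CPM in WT and 502, 485, 544 and 485 CPM in KO, above every normal library. Azin1 differed by 1.22 on the log2 scale in WT (SE 0.21, edgeR adjusted p = 9.48e-05) and 1.62 in KO (SE 0.22, edgeR adjusted p = 5.82e-06). The normal libraries numbered 3 were again the highest of their groups. Per kilobase, the ratio of Odc1 to Azin1 ran from 0.626 to 0.932 in WT normal and from 0.681 to 1.08 in KO normal libraries. After injection it ran from 2.64 to 5.59 in WT and from 3.63 to 4.41 in KO.

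Srm and Sms, the synthases that make spermidine and spermine in turn, rose 2.24-fold to 2.50-fold. Srm (chromosome 4:148591503-148594993, plus strand) had 17.7 to 21.5 CPM in WT and 16.8 to 22.7 CPM in KO normal libraries, and 38.8 to 52.9 CPM in WT and 37.1 to 55.7 CPM in KO after injection. Its log2 difference was 1.32 in WT (SE 0.14, edgeR adjusted p = 3.44e-07) and 1.27 in KO (SE 0.13, edgeR adjusted p = 5.25e-07). Sms (chromosome X:157443855-157492287, minus strand) had 9.56 to 14.6 CPM in WT and 8.29 to 12.9 CPM in KO normal libraries, and 25.4 to 27.8 CPM in WT and 21.2 to 27.1 CPM in KO after injection. Its log2 difference was 1.17 in WT (SE 0.16, edgeR adjusted p = 6.13e-06) and 1.25 in KO (SE 0.16, edgeR adjusted p = 2.95e-06). Neither gene overlapped between conditions in either genotype, and 29.6% of the Sms transcript matches copies elsewhere.

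Sat1, spermidine/spermine acetyltransferase, which marks polyamines for breakdown or export (chromosome X:155213132-155216449, minus strand), was the most abundant gene of the set per kilobase in normal muscle and did not rise with the synthetic enzymes. It had 612, 786, 561 and 726 CPM in WT normal and 610, 471, 649 and 705 CPM in KO normal libraries. After injection it had 448, 449, 484 and 502 CPM in WT and 527, 588, 481 and 462 CPM in KO. In WT the injured libraries all lay below the normal ones, and in KO the ranges overlapped. The log2 difference was -0.51 in WT (SE 0.14, edgeR adjusted p = 0.00318), a fall, and -0.24 in KO (SE 0.14, edgeR adjusted p = 0.117), which did not pass. In KO the difference did pass by edgeR without normal library 2 (log2 -0.34, adjusted p = 0.0242), without both normal libraries numbered 2 (log2 -0.35, adjusted p = 0.0222) and under scaling to totals (log2 -0.85, adjusted p = 1.09e-05). The difference between the genotypes in this change was 0.27 (SE 0.19, edgeR adjusted p = 0.99996). Of the Sat1 transcript 44.4% matches copies elsewhere.

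The ratio of Odc1 to Sat1 compares these 2 messages within each library. Per kilobase it ran from 0.0818 to 0.122 in WT normal and from 0.0754 to 0.146 in KO normal libraries. After injection it ran from 1.12 to 2.86 in WT and from 1.61 to 1.96 in KO. With these exon lengths, 3405 bases for Odc1 and 2774 for Sat1, Sat1 was the higher in every normal and Odc1 in every injured library. The longest coding transcripts are 2208 and 1162 bases, so the order at ratios near 1 depends on the length used. Parts of both transcripts also match copies elsewhere. In WT the low end, 1.12 and 1.22, was that of libraries 3 and 4, the low pair for Odc1.

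The order of levels per exon length changed with injury. Close ranks in it depend on the length used. Sat1 has 2774 exon bases but 1162 in its longest coding transcript, whereas Arg2 has 1428 by either measure. Per kilobase in WT normal muscle Sat1 (242 ± 37.0 CPM per kilobase) led, followed by Azin1 (34.1 ± 10.96) and Odc1 (26.02 ± 6.03), which overlapped, then Srm (12.1 ± 1.17), Asl (6.26 ± 0.184), Arg2 (5.80 ± 3.91) and Sms (1.95 ± 0.398), with Arg1 (0.476 ± 0.150) and Nos2 (0.410 ± 0.127) last (SD, n = 4 each). Arg2 overlapped Srm, Asl and Sms, and Arg1 overlapped Nos2. The KO normal order was the same, and there Odc1 also overlapped Srm, while Arg2 and Sms did not overlap. In WT CTX-injected muscle Arg1 (772 ± 215 CPM per kilobase) led Odc1 (329 ± 140), Arg2 (170 ± 38.2), Sat1 (170 ± 9.67), Azin1 (79.4 ± 5.69), Srm (30.3 ± 4.03), Asl (11.9 ± 0.461), Nos2 (10.8 ± 18.8) and Sms (4.36 ± 0.177). Odc1 overlapped Arg2, Arg2 overlapped Sat1, and Nos2 overlapped Srm, Asl and Sms. In KO CTX-injected muscle Arg1 (923 ± 459 CPM per kilobase) and Odc1 (325 ± 28.8) led again, Sat1 (185 ± 20.1) stood above Arg2 (143 ± 29.2) with overlap, and Nos2 (3.54 ± 2.36) came after Sms (4.07 ± 0.459) with overlap.

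**Figure D3:**
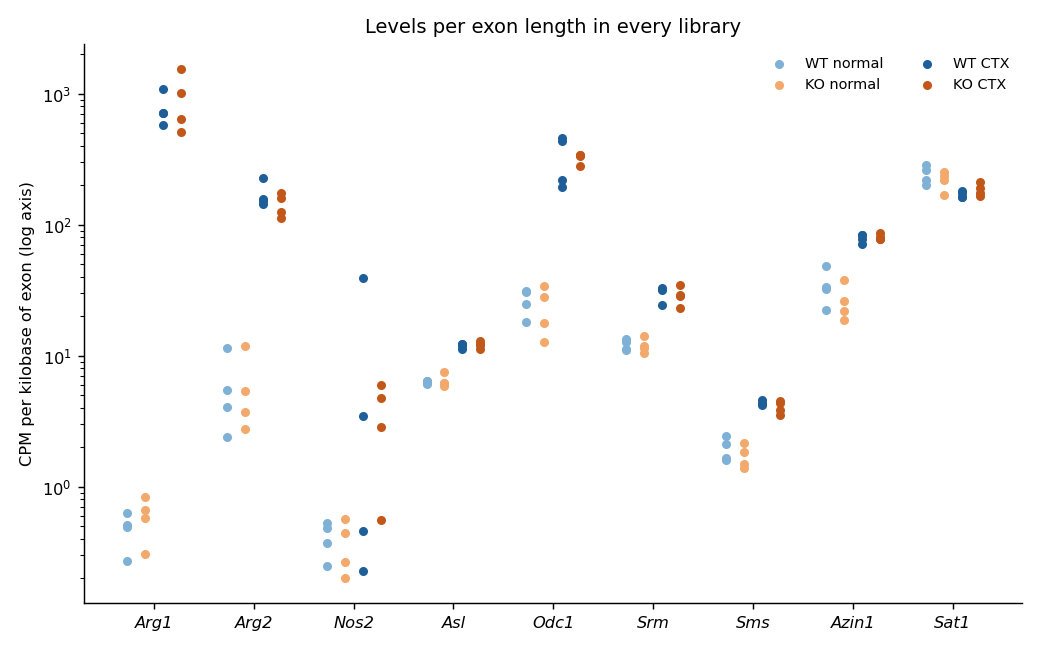
CPM per kilobase of exon (y axis, log scale) of each gene (x axis) in every library (points, coloured by the 4 groups). Sat1 is highest in normal muscle at 242 in WT on average, Arg1 is highest in injured muscle at 772, and Arg1 and Nos2 share the lowest levels in normal muscle.

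Between the libraries labelled KO and WT no gene of the set passed the test. In normal muscle 0 of 9 were called, beside 0% of all tested genes, and the log2 differences of KO minus WT ran from -0.38 (Azin1, SE 0.21) to 0.32 (Arg1, SE 0.41). In CTX-injected muscle 0 of 9 were called, beside 0.00733% of all tested genes, and differences ran from -1.60 (Nos2, SE 1.03) to 0.26 (Arg1, SE 0.31). The interaction, the genotype difference in injured minus that in normal muscle, was called for 0 of 9 genes and for 0% of all tested genes. None of these 3 comparisons had a gene of the set at an unadjusted p under 0.05 by edgeR. DESeq2 also called 0 of the 9 in each, where it called 0% of all tested genes in normal muscle, 0.315% (43 genes) in CTX-injected muscle and 0.359% (48 genes) in the interaction. The groups overlapped for every gene, where 1.08% of all tested genes in normal and 5.7% in CTX-injected muscle did not overlap.

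A missed threshold does not show that levels were alike, and the approximate errors differed widely between the genes. For Asl the KO minus WT difference in injured muscle was 0.03 (SE 0.08), for Azin1 0.02 (SE 0.21), for Srm -0.06 (SE 0.13), for Sms -0.10 (SE 0.15), for Sat1 0.13 (SE 0.14), for Odc1 -0.02 (SE 0.30) and for Arg2 -0.25 (SE 0.41). The error was thus smallest for Asl and largest for Nos2, whose direction was not fixed. Without WT CTX-injected library 3 the Nos2 difference turned to 1.35, and its interaction from -1.45 to 1.497. Arg1 turned from 0.26 to -0.10 in injured muscle without KO library 1, its highest. In normal muscle Arg2 was at 0.02 (SE 0.43), and at -0.56 without KO library 3 and 0.59 without WT library 3, each of which splits the pair numbered 3. With the number as a block among the normal libraries it was at 0.21 (edgeR adjusted p = 0.908). Within the same-numbered normal libraries 2, 3 and 5, Arg1 and Arg2 were higher in KO in 3 of 3 pairs and Azin1 was lower in 3 of 3, while the other 6 tested genes went both ways. Of all tested genes, 30.9% went 1 way in these 3 pairs, and with the block none of the 9 passed the test.

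Some libraries departed from their groups in several genes together. WT CTX-injected library 3 held the group's highest Arg1 (2403 CPM), Arg2 (324 CPM) and Nos2 (172 CPM), and its lowest Odc1 (663 CPM), Srm (38.8 CPM) and Azin1 (449 CPM). Its neutrophil markers, at 656 CPM, and its macrophage markers, at 35710 CPM, were also the highest of the group, and their part in these values was not tested. Both normal libraries numbered 3 had the highest Arg2 and Azin1 and the lowest Arg1 of their groups. Without both of them the set had 8 rises and 1 fall in WT and 8 rises in KO. Both normal libraries numbered 2 had the highest Arg1 and Srm and the lowest Arg2, Nos2, Odc1 and Azin1 of their groups. They also had the highest neutrophil markers, summing to 4710 CPM in WT and 6882 CPM in KO, and the highest eosinophil markers, at 937 and 618 CPM. The other normal libraries had 353 to 2202 CPM of neutrophil and 63.1 to 401 CPM of eosinophil markers, and the part of these cells in the values of the set was not tested. Without both libraries numbered 2 the set had 8 rises and 1 fall in WT, and 7 rises and 1 fall in KO, where Nos2 no longer passed and Sat1 did. The fitted coefficient of variation fell from Nos2 (95.2%) through Arg2 (41.3%), Arg1 (32.7%), Odc1 (30.5%), Azin1 (21.8%), Sms (15.6%), Sat1 (15.2%) and Srm (13.98%) to Asl (9.59%). Both arginases, Nos2 and Odc1 thus had the 4 largest values of the set.

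**Figure D4:**
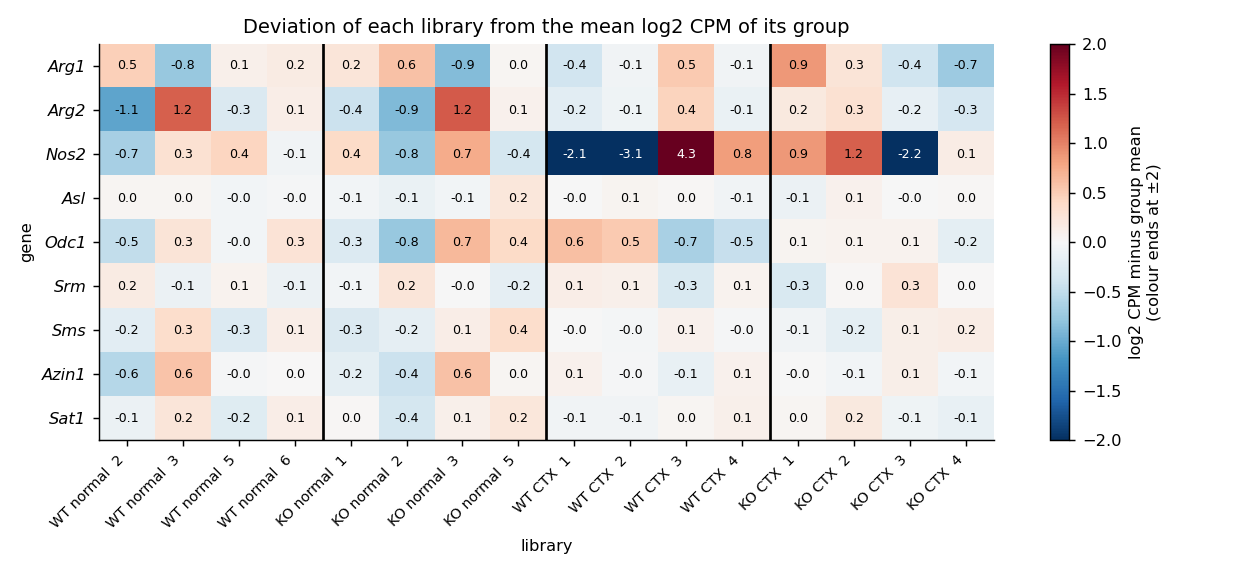
Log2 CPM of each library minus the mean of its group (printed value, and colour that ends at 2 in either direction) for the 9 tested genes (rows) in the 16 libraries (columns), with black lines between groups. Nos2 carries the strongest colours, in injured libraries of both genotypes, the Asl row is nearly blank, and the libraries numbered 3 of both normal groups share their signs for Arg1, Arg2 and Azin1.

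The wider pathway was read from 9 lists holding 80 genes, of which 79 were in the table and 64 were tested. In WT 25 rose and 19 fell with injury, beside 33.3% of all tested genes called higher and 39.4% lower. In KO 24 rose and 22 fell, beside 33.3% higher and 40.2% lower. The same shares stand beside the counts of each list below. Of the 64, 42 were called in the same direction in both genotypes, and the like share of all tested genes was not taken. None of the 64 was called between the genotypes or in the interaction. There edgeR's unadjusted p was under 0.05 for 1 in normal muscle, 5 in injured muscle and 3 in the interaction.

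Arginine carriers rose without exception among those tested, 5 of 5 in both genotypes, beside 33.3% of all tested genes called higher in each. Slc7a2, a cationic amino acid transporter, went from 2.66 ± 0.647 to 89.2 ± 111 CPM in WT (log2 5.07, SE 0.72), with an SD above its mean there. Slc7a1 rose by 1.90 (SE 0.27), Slc7a7 by 1.53 (SE 0.12) and Slc7a6 by 1.07 (SE 0.17). Of the nitric oxide list, 3 of 9 rose and 2 fell in WT, and 2 rose and 3 fell in KO. The risers included Gch1 (log2 1.95, SE 0.22) and Pts (log2 1.54, SE 0.18), enzymes that make the tetrahydrobiopterin cofactor of nitric oxide synthases. Among those that fell were Nostrin (log2 -1.20, SE 0.18), a trafficking factor of the endothelial synthase, and Ddah1 (log2 -1.43, SE 0.36), which clears methylarginine inhibitors. Of 4 tested genes on the list for the urea cycle and arginine metabolism, 0 rose and 3 fell in both genotypes. Those that fell were Gatm (log2 -1.84, SE 0.24) and Gamt (log2 -0.78, SE 0.18), the creatine synthesis enzymes, and Azin2 (log2 -1.33, SE 0.31). Azin2 is a relative of Azin1 that the polyamine list also counts. Ornithine's route to proline and glutamate was mixed, with 2 of 7 up and 1 down in WT and 2 up and 2 down in KO. There Oat, ornithine aminotransferase, rose by 0.54 (SE 0.11) and Aldh18a1 by 0.77 (SE 0.15), while Aldh4a1 was at -0.36 (SE 0.13) in WT.

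Among the other polyamine genes 1 of 5 rose and 3 fell in each genotype. Smox, spermine oxidase, which turns spermine back to spermidine, rose from 102 ± 46.4 to 642 ± 116 CPM (log2 2.65, SE 0.34). Paox, the oxidase that acts on acetylated polyamines made by Sat1, fell by 0.86 (SE 0.19), and Sat2, a relative of Sat1, went from 0.882 ± 0.260 to 0.0726 ± 0.0696 CPM (log2 -3.50, SE 0.68). Azin2, which is also on this list, is the same fall as given above. Of 5 tested transporters 1 rose and 3 fell in WT, and 1 rose and 4 fell in KO. Atp13a3 rose (log2 1.11, SE 0.22), and Slc18b1 (log2 -5.33, SE 0.24) and Slc12a9 (log2 -1.59, SE 0.14) fell. Slc22a3, at 0.750 ± 0.678 CPM in WT normal muscle, was listed at 0 in all CTX-injected libraries. Hypusination uses spermidine to modify the translation factor eIF5A, and 3 of its 4 tested genes rose in both genotypes. These were Dhps by 1.35 (SE 0.12), Dohh by 1.08 (SE 0.10) and Eif5a by 1.21 (SE 0.11) in WT. On the methionine salvage list 2 of 8 rose and 2 fell in both genotypes. On the log2 scale in WT, Enoph1 (0.58, SE 0.11) and Ahcy (0.52, SE 0.15) were up and Mat2a (-1.04, SE 0.26) and Adi1 (-0.71, SE 0.23) down.

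Of 18 genes known to control Arg1 or Nos2, 8 rose and 6 fell in each genotype. Of all tested genes, 33.3% were called higher in each, and 39.4% in WT and 40.2% in KO lower. Hif1a, the hypoxia-inducible factor subunit, went from 212 ± 62.4 to 1615 ± 176 CPM in WT (log2 2.93, SE 0.24), and Cebpb, a factor that binds the Arg1 enhancer, rose by 1.28 (SE 0.16). Ifngr1, a subunit of the interferon gamma receptor, fell by 0.81, and Klf4 fell by 1.24 on the log2 scale. Over the 9 lists, the arginine carriers (5 tested) and the hypusination genes (4 tested) were those in which 0 tested genes fell by the test. With so few genes, in lists chosen with earlier results of these data known, this is a description and does not set them apart.

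**Figure D5:**
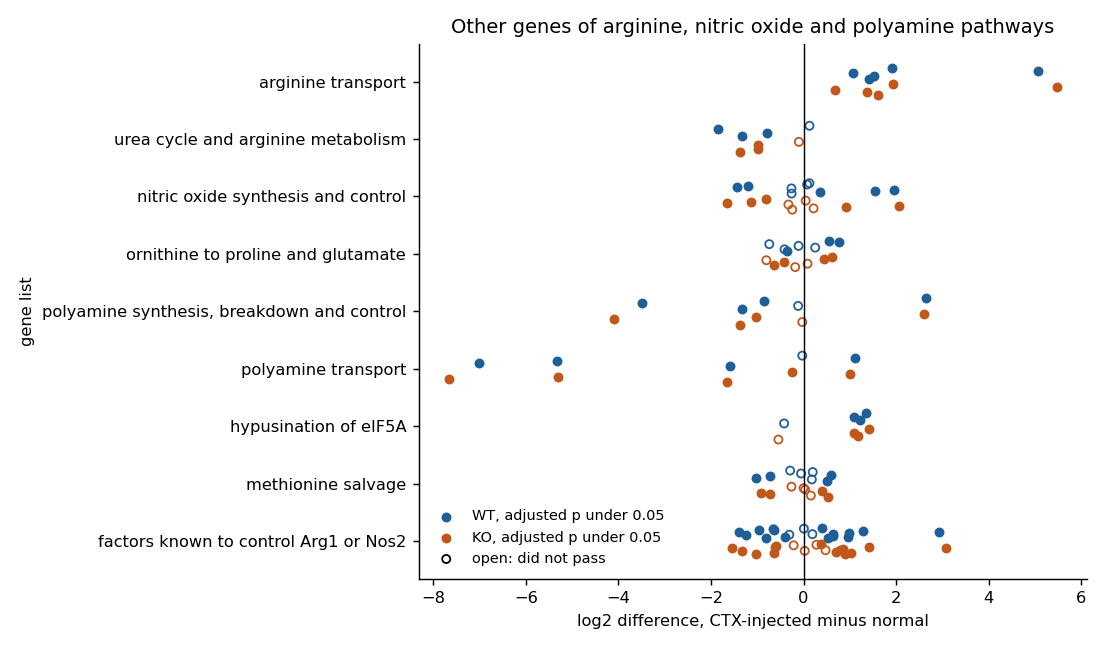
Log2 difference between CTX-injected and normal muscle (x axis) of each tested gene of the 9 pathway lists (y axis) in WT (blue) and KO (orange), filled where edgeR's adjusted p was under 0.05. All arginine carriers lie right of 0 with Slc7a2 at 5.07 in WT, and the leftmost points are Slc22a3, which had no reads after injection so that its fitted value is no estimate of a fold.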

How the data were processed

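The values deposited by the authors were raw read counts per gene symbol for 16 libraries. Per the labels' protocols, RNA was amplified with SMART-Seq V4, which keeps no strand and no molecular identifiers. The submitters' processing notes name HISAT2 2.1.0, featureCounts (Subread 1.6.2), cutadapt 1.18 and FastQC 0.11.7, with the build mm10. The sources used here do not give the counting annotation. Genes were kept with filterByExpr, scaled with TMM and tested with edgeR 4.0.16 (R 4.3.3) with 1 coefficient per group over all 16 libraries, in 5 comparisons, with Benjamini-Hochberg adjustment over all 13649 genes. The script was tested on simulated counts in which a small set of genes changed, as many up as down. That setting lacks the broad change seen here, so it does not check the scaling. Each SE was taken as the absolute log2 difference divided by the square root of edgeR's F, which only approximates a standard error. DESeq2 1.42.0 was run as an alternative. Coordinates and exon lengths came from GENCODE M21, and near copies (at least 95% identity over at least 200 bases) from BLAST+ 2.17.0. Promoters came from RefSeq.

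Same-numbered WT and KO normal libraries deviated together (correlations over genes of 0.644, 0.567 and 0.244 for numbers 2, 3 and 5), so the numbers were taken as pairs in normal muscle, from the data alone. Some differently numbered libraries also did, WT 6 with KO 5 at 0.588 and WT 2 with KO 1 at 0.467, so KO 5 was closer to WT 6 than to WT 5. In CTX-injected muscle same-numbered WT and KO libraries did not deviate together (-0.124 to 0.00460). No pair of libraries within a group agreed within sampling noise.

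The genes and lists were chosen with earlier results of these data known. Every gene of the set was named. Each pathway list gave its counts and at most 4 called genes of smallest p for injury in WT, and the nearest profiles were to be named for Arg1, Nos2 and the gene of largest mean CPM, which is Arg1. Sex was read from Xist (above 20 CPM) and Y-linked genes. Markers of other cell types were read as summed CPM.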

Additional observations from a re-analysis of the deposited data

Results flagged for a closer look

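Within the groups of 4 libraries, the gap of the highest or lowest library to its neighbour, divided by the range, was above Dixon's critical value for 4 of the 36 pairs of a tested gene and a group, where chance gives about 1 in 20. Ass1, with at most 1 read in a library, was left out. WT CTX library 3 was far above the other libraries of its group in Nos2, at 171.5 CPM against 1.004 to 15.3, and in Arg2, at 323.8 CPM against 207 to 224. The same library was far below them in Srm, at 38.8 CPM against 50.5 to 52.9. KO CTX library 4 was below the others in Odc1, at 959.0 CPM against 1146 to 1162.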

How the results depend on the processing

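The counts of called genes were within 1.5 times of 9 in WT and 8 in KO for injury, and 0 in the 3 genotype comparisons, under each of the 6 alternatives chosen first, the 3 added after seeing the data (a replicate block in normal muscle only, and leaving out both normal libraries numbered 3 or both numbered 2) and each of the 16 fits without a single library. Of 837 values of single genes 826 kept their side of the threshold, 8 lost the call, 3 gained it and 0 reversed, while 60 values that were never called changed sign. The 837 include the 3 genotype comparisons, where no gene of the set was called under any setting. All lost and gained calls were thus of injury, and the pooled count overstates how steady the injury calls were. The lost calls were all of Nos2 and the gained ones of Sat1 in KO, both given above, and the cause was not tested. With the replicate block over all libraries, 8 genes were called in WT and 8 in KO, and with the block in normal muscle only 8 and 7. The pairing changed no call other than that of Nos2. With the replicate block over all libraries the Nos2 difference between KO and WT in CTX-injected muscle was -0.0036, against -1.60 without it. Same-numbered libraries there did not deviate together, and what the numbers mean is not stated. Depth limits the normal levels of Arg1 and Nos2. For Ass1, depth and the counting of reads that fit several places cannot be told apart.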

Other observations

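The tested genes whose profile over the 16 libraries lay nearest to that of Arg1, by the root mean square difference of log2 CPM centred on each gene's mean, were the acute-phase gene Saa3 (1.59), the membrane glycoprotein gene Pdpn (1.85) and the platelet chemokine gene Ppbp (1.88). None was close, and Saa3 ran from 83.6 to 5086 CPM in CTX-injected muscle, where Arg1 ran from 1139 to 3417. Nearest to Nos2 were Plekhg4 (1.11), the follistatin gene Fst (1.17) and the prolyl hydroxylase gene Egln3 (1.17). In WT CTX library 3 these had 10.6, 20.9 and 23.3 CPM, each the highest of the 16 libraries, as was Nos2. They were picked for profiles like that of Nos2, so a shared highest library was largely fixed by the choice.

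The other genes of the set had nearer neighbours, named here after their values were seen. Clec4e, a C-type lectin receptor, lay 0.29 from Arg2, and it too was highest in the library numbered 3 of both normal groups, at 510 CPM in WT and 372 CPM in KO, and of WT CTX-injected muscle, at 6285 CPM. The next nearest, Thbs1 (0.38) and Igf2bp2 (0.39), were also highest in both normal libraries numbered 3. In WT CTX library 3 they were not: Thbs1 had 38259 CPM, below libraries 1 and 2, and Igf2bp2 had 36.6 CPM, the lowest of its group. The syndecan gene Sdc1 lay 0.36 from Odc1, with 568 and 611 CPM in WT CTX libraries 1 and 2 and 354 and 405 CPM in libraries 3 and 4, the same high and low pairs as Odc1. Slc7a8 (0.40 from Odc1) had these pairs more weakly, at 1402 and 1476 CPM against 1283 and 1238 CPM. Fam20c, nearer at 0.38, had the reverse, at 624 and 619 CPM against 747 and 721 CPM, so the pairs were not common to the neighbours of Odc1. Atp6v1d, a subunit of the vacuolar proton pump, lay 0.11 from Azin1, and Tomm40, a mitochondrial import channel, 0.12 from Srm. Nos3, the endothelial synthase, was at 4.70 ± 1.53 CPM in WT and 2.76 ± 0.316 CPM in KO CTX-injected muscle (SD, n = 4 each), with an unadjusted p of 0.00312 by edgeR that did not pass adjustment. Gene for gene, what the profiles share is the same libraries and the injury contrast, and no test was made of their likeness.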
